A study of Bos taurus with 16 samples.

Results

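Transcripts of 9 genes that encode parts of cell-cell junctions were followed through bovine development in vivo, from the mature oocyte to the blastocyst. Of the adherens junction, the genes were CDH1, CTNNB1 and CTNNA1. The tight junction genes were TJP1, CLDN4, OCLN and F11R, and DSP and DSC2 belong to the desmosome. Genes were found by name among 27393 loci of the deposited data. 11 loci carried one of the names, and where a name had several loci the one with the highest mean was used, so 9 loci are described. Single oocytes and single embryos of Bos taurus were sampled at 8 stages, and each stage had 2 samples (16 overall). The stages were mature oocytes (MII), 2-, 4-, 8- and 16-cell embryos (2C, 4C, 8C and 16C), early morulae (EM), compact morulae (CM) and blastocysts (BL). No sample was treated or edited, and the labels give neither the dams nor the breed. RNA of each oocyte or embryo was amplified in successive rounds before sequencing. Embryonic genome activation (EGA), the start of abundant transcription by the embryo, was placed by the study between the 4- and 8-cell stages of embryos developed in vivo.

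Blastomeres of a cleaving embryo adhere loosely until compaction, when they flatten against each other in the morula. Adhesion at that step is carried by E-cadherin, the product of CDH1, which is anchored to actin by beta- and alpha-catenin. Tight junctions then seal the outer cells so that fluid can be held in the blastocyst cavity, and desmosomes tie the keratin filaments of neighbouring trophectoderm cells together.

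Levels are given in CPM, the reads on a locus as counts per 1000000 reads of the sample. They were not divided by transcript length, so a level is compared only with levels of the same gene. Between 607672 and 3379426 reads per sample were recovered from the deposited values, with a median of 1347534, and 3 reads, taken as the limit of detection, were worth between 0.888 and 4.94 CPM. Oocyte markers summed to between 3043 and 10057 CPM in the 6 samples before EGA. After EGA they summed to between 5.89 and 56.4 CPM in 9 samples and to 1463 CPM in 8C replicate 2, which stood apart from the rest. Some results that 8C enters are therefore also given without that embryo. The 8 oviduct or uterine epithelium markers summed to 174 CPM in 16C replicate 2, 104 and 82.5 CPM in the blastocysts, 91.9 CPM in 2C replicate 1 and at most 48.2 CPM in the other samples. EPCAM, which epithelia of the embryo can also express, made up 170 CPM of the sum in 16C replicate 2 and 98.3 and 74.7 CPM in the blastocysts, whereas in 2C replicate 1 most was OVGP1, with 113 reads there and at most 2 in any other sample. Trophectoderm markers summed to 1591 and 1441 CPM in the blastocysts, while CDX2, a defining marker of that lineage, had no read in either.

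CDH1, CLDN4, F11R, DSP and DSC2 were higher after EGA, CTNNA1 and OCLN were lower, and CTNNB1 and TJP1 did not pass the test. The 5 genes that were higher stand against 37.9% of the 9670 loci tested, and the 2 that were lower against 32.1%. Of these 5, CLDN4 and DSC2 had no read before EGA and DSP had 7 reads. They entered the test through later stages alone, so they could only be called higher. After EGA is the mean of the stages from 8C to BL (10 samples) and before EGA that of MII, 2C and 4C (6 samples). The test was limma on log2(deposited value + 1), with an adjusted p (Benjamini-Hochberg, over all loci tested) of 0.05 as the threshold, and differences are on that log2 scale, which understates changes of genes with few reads. The median difference over all loci was 0.23, and 0.61 when samples were scaled to their total reads. A difference over the 8 stages was called for 6 of the 9 genes, CDH1, CTNNA1, OCLN, F11R, DSP and DSC2, against 66.7% of all loci. For CTNNA1 this call was lost with samples scaled to total reads (adjusted p = 0.226 by limma), without MII replicate 2 (0.0661) and without EM replicate 1 (0.0828), and for DSP without BL replicate 1 (0.0547). CLDN4 was called by edgeR (adjusted p = 0.0163) but not by limma (0.0774) or DESeq2 (0.569). Its limma call came only with 1 sample left out, either 8C embryo or either CM embryo. Without 8C replicate 1 all 9 genes were called, against 71.3% of all loci. Each sample is a whole oocyte or embryo, so fewer cells of a type and less RNA per cell cannot be told apart.

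**Figure D1:**
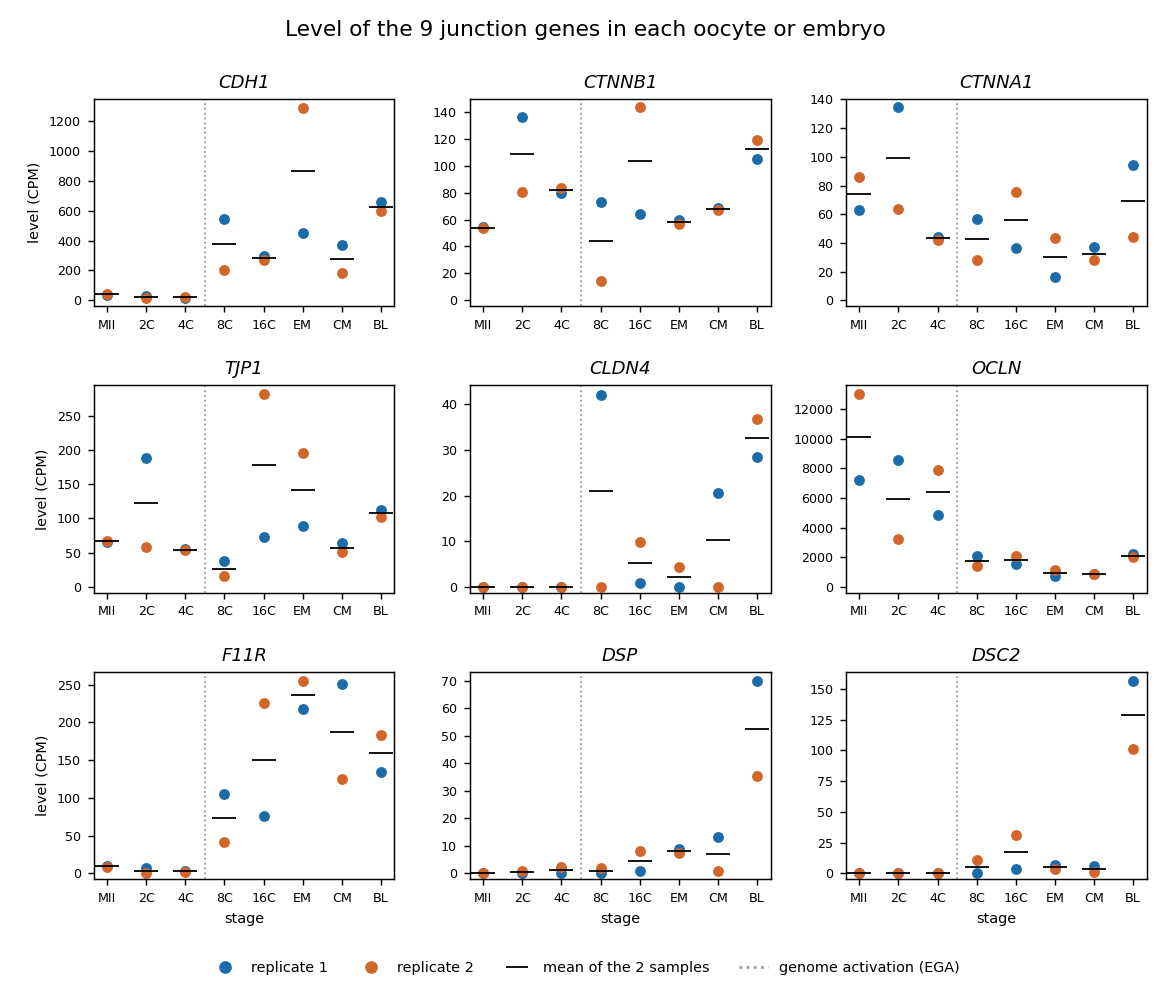
Levels (CPM, linear axes starting near 0) of the 9 junction genes in each of the 16 oocytes and embryos by stage. Points are single samples, bars are means of the 2 samples of a stage, and the dotted line marks EGA. CDH1 and F11R are higher in all 10 samples after EGA than in the 6 before it, OCLN is lower in all 10, and DSC2 reaches 156 and 101 CPM in the blastocysts. The share of all loci that separate in this way was not counted.

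E-cadherin transcripts were present in every sample and rose at the 8-cell stage. CDH1 had 38.1 and 42.1 CPM in the MII oocytes, 29.9 and 17.5 CPM at 2C, and 18.8 and 25.2 CPM at 4C. It had 547 and 201 CPM at 8C, 297 and 271 CPM at 16C, 449 and 1285 CPM at EM, 371 and 180 CPM at CM, and 659 and 594 CPM at BL. The 10 samples after EGA did not overlap with the 6 before it, and EM replicate 2 was far above the rest. The share of all loci with no such overlap was not counted, here or for F11R and OCLN, and 70% of all loci were called in this comparison. CDH1 was higher after EGA by 3.40 (SE 0.32, adjusted p = 2.3e-07 by limma), and by 3.57 without 8C replicate 2. Between 4C and 8C the difference was 3.88 (SE 0.61, adjusted p = 3.5e-04), 4.74 without that embryo and 3.01 without 8C replicate 1. In the order of stage means, EM came first with 867 ± 591 CPM (SD, n = 2), followed by BL with 627 ± 45.7 CPM. EM and BL overlapped, as did 8C, 16C and CM, whereas BL lay apart from 8C, CM apart from MII and MII apart from 2C.

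The catenins, which link cadherin to the cytoskeleton, did not follow CDH1. CTNNB1, beta-catenin, ranged from 53.5 to 136 CPM with a median of 80.3 CPM before EGA and from 14.4 to 143 CPM with a median of 67.9 CPM after it. The lowest value was that of 8C replicate 2, the other 8C embryo had 73.0 CPM, and the groups overlapped. Its difference after against before EGA was -0.67 (SE 0.35, 95% interval -1.41 to 0.06, adjusted p = 0.0942 by limma), -0.42 without 8C replicate 2, and -0.93 with an adjusted p of 0.00490 without 8C replicate 1. The blastocysts had the highest stage mean, 112 ± 9.75 CPM (SD, n = 2), overlapping with 2C and 16C.

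CTNNA1, alpha-catenin, ranged from 41.8 to 134 CPM with a median of 63.1 CPM before EGA and from 16.3 to 94.3 CPM with a median of 40.3 CPM after it. The groups overlapped, and 2C replicate 1, the sample with OVGP1 reads, was the highest. The difference was -1.16 (SE 0.32, adjusted p = 0.00453 by limma), -0.99 (adjusted p = 0.0183) without 2C replicate 1 and -1.03 (adjusted p = 0.00748) without 8C replicate 2. With samples scaled to total reads it was -0.68 (adjusted p = 0.0866), so the call depended on the scaling. No neighbours in the order of its stage means lay apart.

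F11R encodes junctional adhesion molecule A, a membrane protein of the tight junction. It had at most 9.31 CPM before EGA, and no read in 2C replicate 2. It had 105 and 41.4 CPM at 8C, 75.7 and 225 CPM at 16C, 217 and 254 CPM at EM, 250 and 124 CPM at CM, and 135 and 183 CPM at BL. All 10 samples after EGA were above all samples before it. The difference was 4.62 (SE 0.45, adjusted p = 3.6e-07 by limma), the largest of the 9 in this test on the log2 scale, and 4.78 without 8C replicate 2. From 4C to 8C it was 4.52 (SE 0.87, adjusted p = 0.00126), 5.33 without that embryo and 3.71 without 8C replicate 1. The stages after EGA overlapped with their neighbours in the order of means, led by EM with 236 ± 26.0 CPM (SD, n = 2). A second locus named F11R, XLOC_050643, was listed at 0 in every sample.

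CLDN4 encodes a claudin, one of the strand-forming proteins that set the permeability of the tight junction. It had no read in any of the 6 samples before EGA and 123 reads in all after it. Its level was 42.1 CPM in one 8C embryo and 0 in the other, 0.773 and 9.87 CPM at 16C, 0 and 4.43 CPM at EM, 20.5 and 0 CPM at CM, and 28.5 and 36.7 CPM at BL. Of the stages after EGA, 16C and BL were the ones with reads in both embryos. With reads pooled, the level after EGA was at least 47.2-fold higher than the detection limit over the samples before it, and that of the blastocysts at least 132-fold higher. Limma gave a difference of 2.73 (SE 0.83, adjusted p = 0.00813), and 3.33 without 8C replicate 2. Between 4C and 8C the gene was not called (difference 2.98, adjusted p = 0.156), although it was by edgeR (adjusted p = 0.0392) and without 8C replicate 2 (adjusted p = 0.00612). It was not called by DESeq2 (adjusted p = 0.210), and without 8C replicate 1 both stages were at 0.

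OCLN encodes occludin, another membrane protein of the tight junction strand. The locus used, XLOC_033410, had 7219 and 13000 CPM in the MII oocytes, 8578 and 3220 CPM at 2C, and 4873 and 7915 CPM at 4C. It had 2103 and 1410 CPM at 8C, 1531 and 2060 CPM at 16C, 709 and 1153 CPM at EM, 860 and 883 CPM at CM, and 2185 and 2015 CPM at BL. Every sample after EGA was below every sample before it. OCLN was lower after EGA by a difference of -2.78 (SE 0.32, adjusted p = 2.3e-06 by limma), and -2.70 without 8C replicate 2. From 4C to 8C the difference was -1.86 (SE 0.63, adjusted p = 0.0313), but -1.43 (adjusted p = 0.143) without 8C replicate 2, -2.20 (adjusted p = 0.0663) without 4C replicate 1 and -1.51 (adjusted p = 0.196) without 4C replicate 2. Of the stage means, those of MII, 4C and 2C overlapped and lay apart from BL, 16C and 8C, which overlapped and lay apart from EM and CM.

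A second locus named OCLN, XLOC_033610, had fewer reads. It ranged from 227 to 638 CPM before EGA and from 63.1 to 256 CPM after it, so that one sample after EGA, EM replicate 2, lay within the range before it. The ratio of the first locus to the second ran from 4.50 in EM replicate 2 to 34.9 in 4C replicate 2, with a median of 18.4. The second locus was also lower after EGA (-2.21, SE 0.27, adjusted p = 3.9e-06 by limma, and -2.27 without 8C replicate 2), while from 4C to 8C it was not called (-0.82, adjusted p = 0.235, and -1.14 without that embryo). By identifier number, the first locus lies between SMN1 and TAF9 and the second between GTF2H2 and MARVELD2. In the RefSeq order of assembly ARS-UCD2.0, OCLN lies between GTF2H2 and MARVELD2 on chromosome 20, as the second does, and TAF9 lies further on. Neither the strand of the loci nor a strand rule of the counting is given in the sources used here. Reads of overlapping or antisense loci could therefore not be told apart, and the values of OCLN are uncertain to that extent.

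Oocyte and cumulus markers were lower after EGA as well. All 7 oocyte markers tested passed, and 3 of 4 tested cumulus or granulosa markers out of 12 listed, against 32.1% of all loci. The cumulus list summed to between 564 and 1987 CPM before EGA and between 382 and 875 CPM after it. STAR and HAS2 made up most of the sum, FSHR had 4 to 21 reads in each sample before EGA, and AMH and FOXL2 were at 0 in every sample. The part of these markers in the fall of OCLN and CTNNA1 was not tested.

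**Figure D2:**
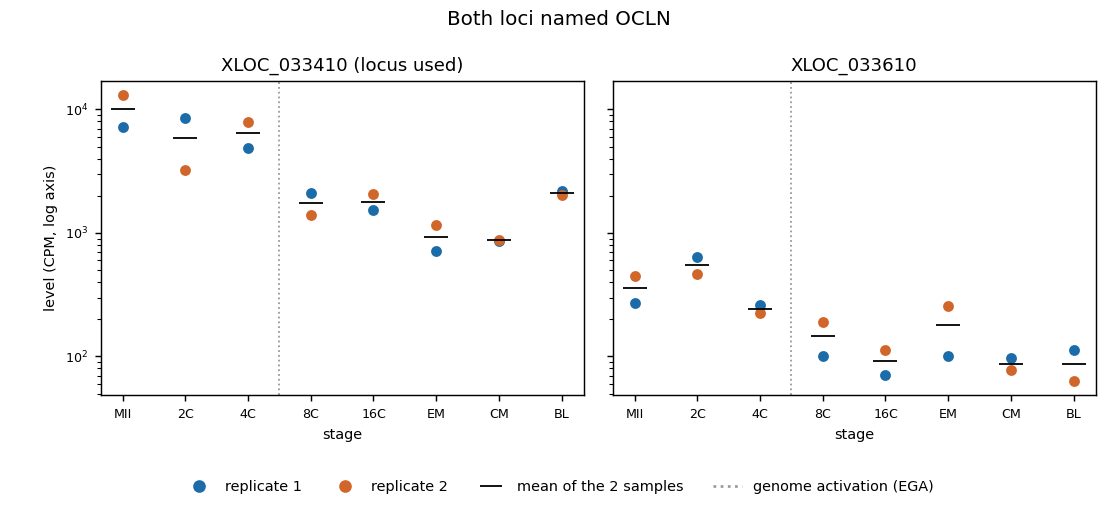
Levels (CPM, log axis) of both loci named OCLN in each oocyte or embryo by stage. Points are single samples and bars are means of 2 samples. XLOC_033410 lies between 709 and 13000 CPM and XLOC_033610 between 63.1 and 638 CPM, and both are lower on average after the dotted line at EGA.

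TJP1, the scaffold protein ZO-1 beneath the tight junction, was present in all samples at both periods. It ranged from 54.1 to 188 CPM with a median of 61.4 CPM before EGA and from 15.4 to 281 CPM with a median of 80.8 CPM after it. The groups overlapped, with 2C replicate 1 highest before EGA and 16C replicate 2 highest after it. The difference was -0.38 (SE 0.34, 95% interval -1.10 to 0.35, adjusted p = 0.333 by limma), -0.23 without 8C replicate 2, -0.10 (adjusted p = 0.792) without 2C replicate 1, and 0.10 with samples scaled to total reads, so its sign changed with the scaling. A stage effect was not called (adjusted p = 0.0678 by limma), nor was it without 8C replicate 2 (0.264). It was called without 2C replicate 1 (adjusted p = 0.0463), 2C replicate 2 (0.0273), 8C replicate 1 (0.0338) or 16C replicate 1 (0.0435) by limma. By stage means 16C was highest with 177 ± 147 CPM (SD, n = 2) and 8C lowest with 26.3 ± 15.4 CPM, and 8C lay apart from 4C. From 4C to 8C the difference was -1.16 (adjusted p = 0.180 by limma), and -0.41 (adjusted p = 0.697) without 8C replicate 2.

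Both desmosome genes were at or near 0 before EGA and highest in the blastocysts. DSC2, a desmosomal cadherin, had no read in the 6 samples before EGA or in 8C replicate 1. It had 10.6 CPM in 8C replicate 2, 3.86 and 31.3 CPM at 16C, 6.54 and 3.32 CPM at EM, 6.15 and 0.714 CPM at CM, and 156 and 101 CPM at BL. The blastocysts lay apart from all other samples. The pooled level after EGA was at least 109-fold higher than the detection limit over the samples before it, but at least 52.9-fold without BL replicate 1, which held 159 of the 284 reads. For the blastocysts it was at least 558-fold higher, and at least 422-fold without that embryo. Limma gave a difference of 3.40 (SE 0.58, adjusted p = 8.7e-05) after against before EGA, and 3.03 without 8C replicate 2.

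DSP, desmoplakin, which binds the keratin filaments, had 3 reads in 2C replicate 2 and 4 in 4C replicate 2 and none in the other 4 samples before EGA. It had 0 and 1.92 CPM at 8C, 0.773 and 8.23 CPM at 16C, 8.99 and 7.20 CPM at EM, 13.3 and 0.714 CPM at CM, and 69.7 and 35.2 CPM at BL. Reads numbered from 0 to 13 in the embryos from 8C to CM, so these levels are imprecise, and the blastocysts were above all of them. The difference after against before EGA was 2.29 (SE 0.56, adjusted p = 0.00193 by limma), and 2.12 (adjusted p = 0.00347) without 8C replicate 2. Between 4C and 8C neither DSP (-0.18, adjusted p = 0.918 by limma, -1.04 without 8C replicate 2 and 0.68 without 8C replicate 1) nor DSC2 (1.88, adjusted p = 0.197) was called. DSC2 was called there by edgeR (adjusted p = 0.0424), by DESeq2 (adjusted p = 0.0376) and without 8C replicate 1 (adjusted p = 0.0202), and without 8C replicate 2 both stages were at 0.

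Across EGA itself, from 4C to 8C, CDH1 and F11R were higher, OCLN was lower and the other 6 genes were not called. The 2 that were higher stand against 17.7% of all loci, and the 1 that was lower against 19.1%. Without 8C replicate 2, CDH1, F11R and CLDN4 were higher and none of the 9 was lower, against 18.1% and 20.2% of all loci. Without 8C replicate 1, CDH1, F11R and DSC2 were higher and OCLN and CTNNB1 lower, against 12.9% and 11.7% of all loci. CTNNB1 differed there by -2.59 (adjusted p = 0.00649 by limma), by -1.31 (adjusted p = 0.139) with both 8C embryos and by -0.03 without 8C replicate 2. With 4C and 8C fitted alone none of the 9 was called, and CDH1 had an adjusted p of 0.0509.

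Compaction, the step from EM to CM, gave no call among the 9 genes. Differences ran from -1.01 for CDH1 (95% interval -2.31 to 0.29) to 1.24 for CLDN4 (95% interval -2.15 to 4.64), with an adjusted p of 1.00 for each gene by limma. None of the 9 had an unadjusted p under 0.05, and no alternative setting called any of them. Of all loci 0% were called by limma and 485 had an unadjusted p under 0.05, while edgeR called 0 loci and DESeq2 called 5. For CLDN4 the interval included a difference as large as that after against before EGA (2.73). The median over all loci was 0.00, and -0.42 with samples scaled to total reads, under which F11R (0.13) and OCLN (0.49) changed sign, to -0.41 and -0.05.

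At the step from CM to BL, DSC2 was the single gene called, against 2.92% of loci that were higher and 1.50% that were lower. DSC2 was higher by 5.12 (SE 1.11, adjusted p = 0.0145 by limma), a 34.8-fold difference on the scale with the pseudocount of 1. The call did not hold by edgeR (adjusted p = 0.0583), with CM and BL fitted alone (0.157), without CM replicate 2 (difference 4.13, adjusted p = 0.191), without BL replicate 1 (4.84, adjusted p = 0.0947) or without BL replicate 2 (5.40, adjusted p = 0.105), though the direction was kept in each. DSP differed by 3.29 (SE 1.09, 95% interval 0.98 to 5.60, adjusted p = 0.105), and passed with a pseudocount of 5 (adjusted p = 0.0145) and without CM replicate 1 (adjusted p = 0.0369). For the other genes the differences were 2.87 for CLDN4 (adjusted p = 0.375), 1.10 for CDH1 (adjusted p = 0.375), 1.09 for OCLN (adjusted p = 0.394), 0.82 for CTNNA1 (adjusted p = 0.543), 0.73 for TJP1 (adjusted p = 0.628), 0.54 for CTNNB1 (adjusted p = 0.743) and -0.34 for F11R (adjusted p = 0.896). The second OCLN locus went the other way from the first, by -0.22 (adjusted p = 0.884).

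Of 8 trophectoderm markers tested, 6 were higher in BL than in CM, against 2.92% of all loci. The listed markers summed to 285 and 125 CPM in the compact morulae and 1591 and 1441 CPM in the blastocysts. KRT8, an epithelial keratin, had 28.7 and 0 CPM at CM and 525 and 503 CPM at BL, and KRT18 had 51.2 and 0 CPM and 388 and 367 CPM. In 16C replicate 2, the embryo with the highest DSC2 before BL, KRT8 had 102 CPM and KRT18 114 CPM, against 3.86 and 11.6 CPM in the other 16C embryo. That embryo also had the highest sum of oviduct or uterine epithelium markers of all samples, followed by a blastocyst, with most of it EPCAM. CM replicate 2, with 1 read each of DSP and DSC2, had no read of either keratin. CDX2 was at 0 in all CM and BL samples. The part of cell type in the values of DSC2 and DSP was not tested.

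**Figure D3:**
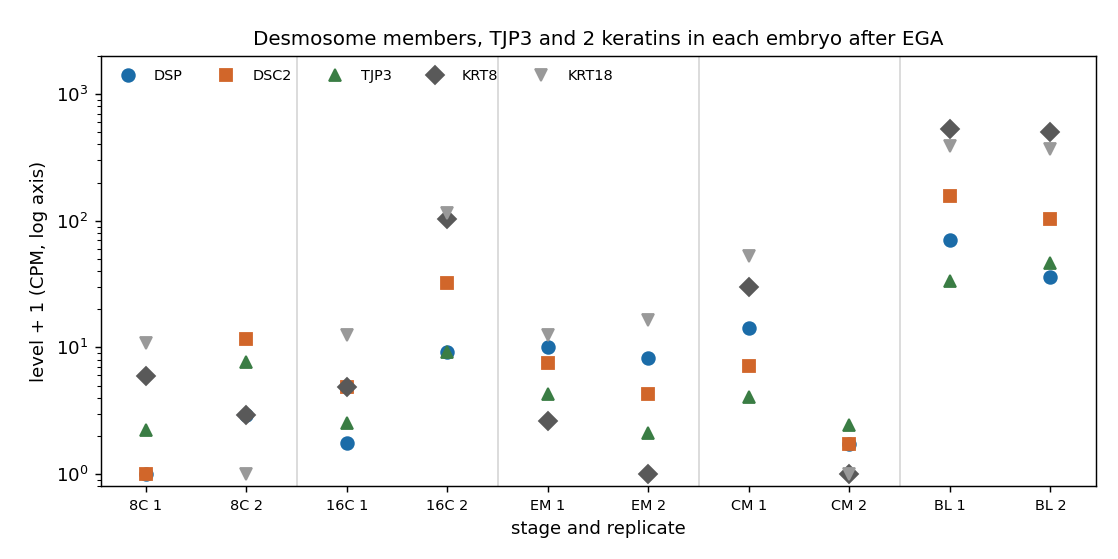
Levels (CPM plus 1, log axis) of DSP, DSC2, TJP3 and the keratins KRT8 and KRT18 in each of the 10 embryos after EGA. Each point is 1 embryo. All 5 genes are highest in the blastocysts, where DSC2 has 156 and 101 CPM, and 16C replicate 2 is the next highest embryo for DSC2, KRT8 and KRT18.

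Late stages were also set against earlier ones after EGA, with CM and BL (4 samples) against 8C, 16C and EM (6 samples). None of the 9 genes was called by limma, against 1.75% of loci higher and 1.07% lower, and 2 of the 9, DSP and DSC2, had an unadjusted p under 0.05. edgeR and DESeq2 called none of the 9. DSP differed by 2.12 (SE 0.70, adjusted p = 0.126) and DSC2 by 1.83 (SE 0.72, adjusted p = 0.193). With a pseudocount of 5 both passed, with adjusted p of 0.0223 and 0.0409. DSP also passed without CM replicate 2 (adjusted p = 0.0489) and DSC2 without 8C replicate 2 (adjusted p = 0.0406), where DSP differed by 2.41 (adjusted p = 0.0820). For CDH1 the difference was 0.01 (95% interval -0.83 to 0.85), which became -0.05 with samples scaled to total reads, -0.12 with TMM factors and -0.28 without 8C replicate 2, and for OCLN its absolute size was under 0.01 (95% interval -0.87 to 0.86), and -0.15 without 8C replicate 2.

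**Figure D4:**
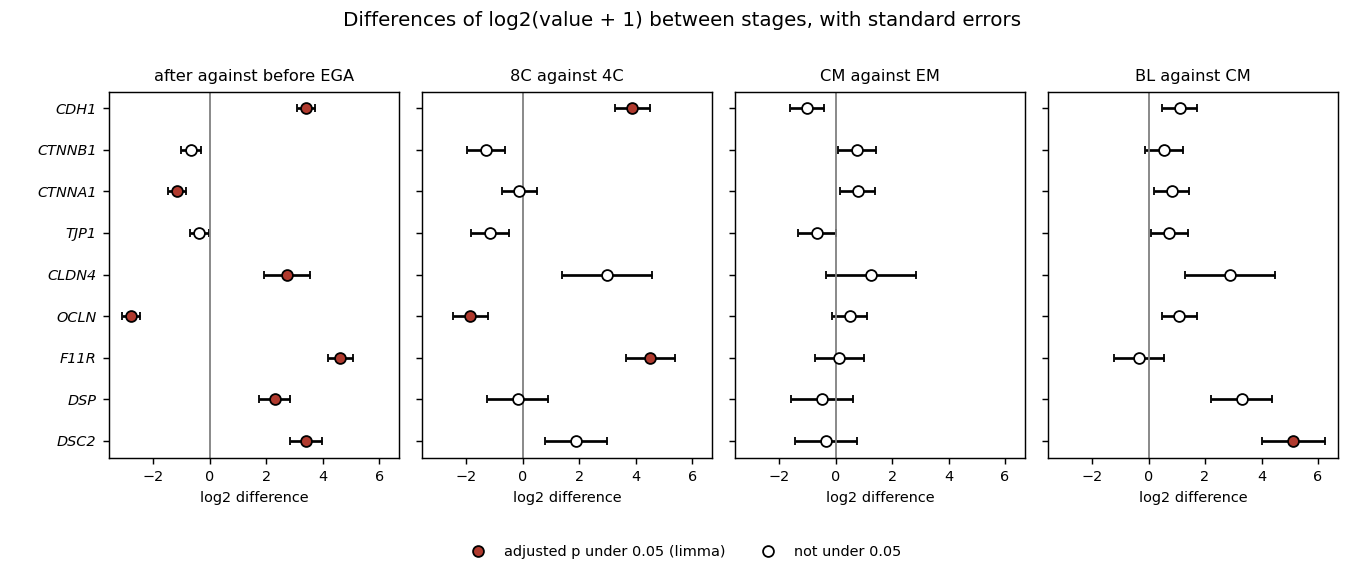
Differences of log2(value + 1) with standard errors for the 9 genes in 4 comparisons, on one axis. Filled points have an adjusted p under 0.05 by limma: 7 after against before EGA, 3 for 8C against 4C, none for CM against EM, and DSC2 alone for BL against CM.

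Other genes of the junctions were counted from lists of adherens junction, tight junction, polarity complex, desmosome and gap junction genes. Of 109 genes listed, 101 were found by name or synonym, 17 of these had no read, and 54 were tested. After against before EGA, 16 (29.6%) were higher and 19 (35.2%) lower, against 37.9% and 32.1% of all loci, with a median difference of -0.35 where that of all loci was 0.23. Without 8C replicate 2, 18 (33.3%) were higher and 21 (38.9%) lower, against 38.9% and 32.8% of all loci. From 4C to 8C 9 (16.7%) were higher and 9 (16.7%) lower, against 17.7% and 19.1% of all loci. Without 8C replicate 2, these counts were 12 (22.2%) and 5 (9.26%), against 18.1% and 20.2%, and without 8C replicate 1 they were 5 and 5 (9.26% each), against 12.9% and 11.7%. From EM to CM limma called no locus, as above, and from CM to BL 3 (5.56%) were higher and 2 (3.7%) lower, against 2.92% and 1.50%. The desmosome list had 4 of 7 tested genes (57.1%) higher and 1 (14.3%) lower after EGA, against 37.9% and 32.1% of all loci, with a median difference of 2.72. The gap junction list had 2 of 6 (33.3%) higher and 4 (66.7%) lower. Both lists had the same counts without 8C replicate 2, but from 4C to 8C the desmosome list went from 0 of 7 genes called by limma to 4 (57.1%) higher without that embryo, DSG1, DSG2, PKP2 and PERP, named after their values were seen, and stayed at 0 without 8C replicate 1.

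From CM to BL, TJP3 (ZO-3, a scaffold related to TJP1) had 3.08 and 1.43 CPM at CM and 32.4 and 45.5 CPM at BL, a difference of 3.56 (SE 0.80, adjusted p = 0.0179 by limma). EZR, ezrin, which ties membranes to actin, had 536 and 49.97 CPM at CM and 2966 and 1625 CPM at BL (difference 3.56, adjusted p = 0.0185). DLG1, a scaffold of the basolateral side, had 14.4 and 7.14 CPM and then 88.4 and 82.2 CPM (2.80, adjusted p = 0.0129). These 3 were chosen by their call in this comparison. Their calls did not hold by edgeR, with CM and BL fitted alone, or without CM replicate 2, BL replicate 1 or BL replicate 2. DESeq2 gave TJP3 no adjusted p. Lower were CLDN10, a claudin, with 31.8 and 31.4 CPM at CM and 2.95 and 0 CPM at BL (-4.27, adjusted p = 0.0154), and MAGI2, a membrane scaffold, with 73.8 and 169 CPM at CM and 4.91 and 1.47 CPM at BL (-5.08, adjusted p = 0.00112). CLDN10 was not called by edgeR, with the stages alone, or without CM replicate 1, CM replicate 2 or BL replicate 2, and MAGI2 lost its call with the stages alone (adjusted p = 0.149 by limma) and kept it under the other 24 alternatives. Each of the 5 genes kept its direction under all 25 alternatives, which adds no support. They were chosen by this difference, and with no overlap of CM and BL, leaving out a sample could not reverse it. MAGI2 was also the single listed gene called in CM and BL against 8C, 16C and EM (-3.26, adjusted p = 0.00439 by limma). It was 1.85% of the 54 tested, against 1.07% of all loci that were lower. Its difference was -3.32 without 8C replicate 2 and -3.19 without 8C replicate 1. EZR (1.96, adjusted p = 0.0567 by limma) was called there by edgeR (2.14, adjusted p = 0.0499) and by DESeq2 (2.25, adjusted p = 0.00178). With a pseudocount of 5 EZR was called by limma as well (1.94, adjusted p = 0.0387).

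Profiles over the 16 samples were compared as Pearson's r of log2(value + 1), as a description, since samples share stage and depth. Among the 9 genes CDH1 and F11R were most alike (r = 0.93), followed by DSP and DSC2 (0.89) and by CTNNA1 and OCLN (0.84). CDH1 and OCLN ran opposite to each other (-0.68), and so did OCLN and F11R (-0.67). CDH1 and its partner CTNNB1 had an r of -0.32. The named locus most like each gene was TMEM170A for CDH1 (0.960), NCOA3 for CTNNB1 (0.859), GLTP for CTNNA1 (0.904) and PHLPP2 for TJP1 (0.903). It was TYRO3 for CLDN4 (0.956), CCZ1 for OCLN (0.959), TPM1 for F11R (0.956), CCDC9 for DSP (0.959) and TJP3 for DSC2 (0.961). The loci most like the mean of the 9 standardised profiles were C24H18orf8 (0.877), GPR172A (0.872), DLGAP5 (0.871), KRT8 (0.867) and S100A16 (0.862).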

How the data were processed

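RNA-Seq of 16 single bovine oocytes and embryos was used, with 2 samples per stage. The authors counted reads on 27393 loci and deposited the counts divided by a size factor, a signal per locus not divided by length. Submitters' processing notes name cutadapt, FastQC, TopHat, Cufflinks and HTSeq, and the genome build is not given in the sources used here. In each sample 100% of the values were whole multiples of 1 step (tolerance 0.05), so reads were recovered and used for CPM, for the filter and for count tests.

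Loci kept by filterByExpr of edgeR 4.0.16 (9670) were compared with limma 3.58.1 in R 4.3.3, using moderation and trend, on log2(deposited value + 1), with stage as the term and contrasts between stages, adjusted by Benjamini-Hochberg at 0.05. Alternatives were edgeR and DESeq2 1.42.0 on the recovered reads, TMM or total reads scaling, pseudocounts of 0.5 and 5, no filter, summed loci, fewer samples in the fit, the replicate number as a block and each sample left out. OCLN by its other locus, detection limit bounds with each sample left out, counts of the lists without either 8C embryo and the alternatives for junction genes named from CM to BL were added after seeing the data. Adjusted p-values measure the spread between single oocytes or embryos, whose dams are not given. RNA was amplified without molecular identifiers, so limits of detection hold for counting error alone. The fit was tested on simulated data with known differences.

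Genes were chosen with earlier results of these data known, as were the lists. All 9 genes are named, as are listed junction genes called in a comparison among EM, CM and BL or of CM and BL with earlier stages (at most 5 per list), and the loci most like each gene. In the text on other observations, further junction genes were chosen after their values were seen. Replicate numbers come from the labels and mark different oocytes or embryos. Over 28 pairs of stages the deviations of same-numbered samples correlated between -0.26 and 0.13 (median 0.00), so the numbers do not pair samples. Sequences of the genes were not used here.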

Additional observations from a re-analysis of the deposited data

Results flagged for a closer look

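Single samples far from the others of their period were looked for by Dixon's ratio of gap to range in 34 groups of levels (CPM). The groups pool stages and some are parts of others, so the usual rate of marks by chance does not apply. The 8 that were marked involve 6 samples. CDH1 had 1285 CPM in EM replicate 2, far above the other 9 samples after EGA and above the other 5 samples from 8C to EM. In 2C replicate 1, the embryo with OVGP1 reads, CTNNB1 had 136.4 CPM and TJP1 188.4 CPM, both far above the other 5 samples before EGA. CLDN4 had 42.07 CPM in 8C replicate 1 while the other samples from 8C to EM had at most 9.87 CPM. DSP had 2.458 CPM in 4C replicate 2, which is 4 reads, and 69.74 CPM in BL replicate 1, the highest after EGA. DSC2 had 31.27 CPM in 16C replicate 2, the embryo that also had keratin reads, against at most 10.6 CPM in the other samples from 8C to EM.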

How the results depend on the processing

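Of the differences of single genes, 35 were recomputed under the alternatives: those over the stages, at EGA and from CM to BL for all 9 genes, 5 from 4C to 8C and 3 for CM and BL against 8C, 16C and EM. Of the 899 values obtained, 857 kept their side of the threshold with no change of sign, 17 lost the call, 22 gained it and 3 changed sign. Stage tests have no sign, and differences that fell to 0.00 count among the 857. The 3 were TJP1 after against before EGA scaled to total reads (0.10), F11R from CM to BL without CM replicate 1 (0.02, with a range of -0.70 to 0.02 over the samples left out) and OCLN from CM to BL by its other locus (-0.22). Of 469 values of the other 19 differences, 34 changed sign, none of them with a call. These were in 10 of the 19 and included F11R (0.13 to -0.41) and OCLN (0.49 to -0.05) from EM to CM with total reads, CLDN4 from EM to CM without CM replicate 1 (1.24 to -1.02), and CDH1 (0.01 to -0.28) and TJP1 (0.07 to -0.18) for the late stages without 8C replicate 2. Of the 7 genes called after against before EGA, 4 were called in a model of 2 groups, whose filter left out CLDN4, DSP and DSC2. Of the genes called from 4C to 8C (3), edgeR gave 5 and the stages alone 0. From CM to BL (1), edgeR and the stages alone gave 0 and a pseudocount of 5 gave 2, which is also its count for CM and BL against 8C, 16C and EM, where the main count was 0. The cause was not tested.

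Leaving out 1 sample at a time gave from 5 to 9 genes for the stage effect, 7 to 8 for EGA, 2 to 5 from 4C to 8C, 0 from EM to CM, 0 to 2 from CM to BL, and 0 to 1 for the late stages. Where a stage kept 1 sample, it was assumed to vary like the others. The replicate block gave 6, 7, 3, 0, 1 and 0 genes in the same order and changed no call.

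Over all loci, calls moved by more than 1.5 times from 3560 (4C to 8C) to 1297 with the stages alone, and to 2042 and 1993 without a 4C sample. Those from CM to BL moved from 427 to 139 by edgeR, 0 with the stages alone, 144 without CM replicate 2, and 277 and 134 without BL replicate 1 and 2. From EM to CM, 0 became 3 with total reads or no filter, 5 by DESeq2, 4 without CM replicate 2 and 1 without BL replicate 1. For the late stages 272 became 477 with a pseudocount of 5, 64 by edgeR and 62 to 640 with 1 sample left out. Depth limits CLDN4, DSP and DSC2, whose reads per sample were often under 20. With the authors' scaled values in place of CPM, whether groups overlapped changed in 3 of 45 gene by comparison cases, CTNNB1 from 4C to 8C and CTNNA1 and OCLN from EM to CM.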

Other observations

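Further junction genes differed across EGA, and those named here were chosen after their values were seen. CDH3, the P-cadherin gene next to CDH1, had mean levels of 42.5, 86.8 and 64.0 CPM at MII, 2C and 4C and at most 10.3 CPM in any later sample (difference after against before EGA -4.95, adjusted p = 1.5e-06 by limma, and -4.82 without 8C replicate 2). JUP, plakoglobin, which serves adherens junctions and desmosomes alike, had at most 2.22 CPM in any sample before EGA, and had 224 and 87.5 CPM at 8C and a mean of 600 CPM at BL (6.80, adjusted p = 9.3e-09, and 6.96 without 8C replicate 2). CLDN6 had 1 read in all before EGA, and it had 136 and 35.6 CPM at 8C and a mean of 300 CPM at BL (6.93, adjusted p = 1.4e-09, and 7.15 without 8C replicate 2).

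Of 7 tested genes of the desmosome list, 4 were higher after EGA and 1 was lower, against 37.9% and 32.1% of all loci. DSG2 (5.09, adjusted p = 1.1e-05 by limma), PKP2 (3.69, adjusted p = 2.1e-05) and PERP (3.41, adjusted p = 9.6e-06) were higher after EGA, with BL means of 122, 56.9 and 99.7 CPM. Without 8C replicate 2 the differences were 5.68, 4.00 and 3.61. DSG3, with no read before EGA, was the other one higher (2.72, adjusted p = 7.7e-04), PKP4 was lower (-1.18, adjusted p = 0.00285 by limma, but -0.72 and 0.0692 with total reads), and DSG1 (0.04) and PPL (0.66) were not called. PPL was called with total reads (1.14, adjusted p = 0.00668 by limma). Early morula means of DSG2, PKP2 and PERP were 76.2, 67.2 and 42.9 CPM. Among gap junction genes, the connexin gene GJC1 had means of 89.0, 259 and 532 CPM at MII, 2C and 4C and at most 84.7 CPM in any later sample (-4.98, adjusted p = 1.3e-05, and -5.65 without 8C replicate 2, the sample with 84.7 CPM). GJB5 had at most 5.56 CPM in any sample before EGA (7.20, adjusted p = 2.5e-06, and 8.01 without 8C replicate 2). In the 8C embryos it had 2592 CPM in replicate 1 and 10.6 CPM in replicate 2, the embryo with oocyte markers. It had 2338 CPM on average at CM and 70.3 CPM at BL (-5.06, adjusted p = 0.0992 by limma).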
